A study of Arabidopsis thaliana and Hordeum vulgare and Setaria italica with 13 samples.

Results

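Methionine tRNAs carry the anticodon CAT (written here in DNA letters) and were followed as a family in seedlings of 7 plants. The family was the row MetCAT among the 52 anticodons of the tRNA-seq percent table, together with every full-length sequence with the anticodon CAT in 5 YAMAT-seq libraries, which came to 21 of 532 listed entries and 15 distinct sequences. The anticodon was taken from the entry name in Arabidopsis thaliana and from the middle 3 bases of the 7-base anticodon loop in the grasses. No treatment is named for the seedlings, which were 10 days old and came from soil at 23 ºC under long days (light for 16 h, dark for 8 h). tRNA-seq, a small RNA library made from pretreated RNA, had a leaf and a root sample of A. thaliana, and seedling samples of another eudicot, soybean (Glycine max), and of 5 grasses. These were wheat (Triticum aestivum), barley (Hordeum vulgare), maize (Zea mays), sorghum (Sorghum bicolor) and foxtail millet (Setaria italica). YAMAT-seq, in which a Y-shaped adapter selects full-length tRNAs through their CCA tail, had seedlings of T. aestivum, H. vulgare, Z. mays, S. italica and A. thaliana. Neither plant genotype nor the number of plants behind a library is given in the sources used here.

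A cell reads the codon for methionine with different tRNAs. The initiator tRNA places methionine at the start codon, and the elongator tRNA places it inside the protein. In plastids and mitochondria the initiator methionine is formylated, as in bacteria, and the first base pair of its acceptor stem typically does not pair. Plant cytosolic initiators have a closed A-T first pair and 3 G-C pairs next to the anticodon loop. Organelles also hold an isoleucine tRNA whose gene reads CAT and whose first anticodon base is modified to lysidine, so that it reads an isoleucine codon. It enters the CAT family by its gene sequence.

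Each group held 1 library, so no difference between species had a replicate spread to be set against. YAMAT-seq totals lay between 6851530 and 19833183 reads. The depth behind the tRNA-seq percentages is unknown. The leaf and root columns of A. thaliana differed in 0 of 52 values and were used as 1 sample, so its tissue labels could not be checked. The tRNA-seq table gives 1 value for the whole anticodon and does not separate initiator, elongator or compartment. YAMAT-seq shares carry exact 95% intervals (Clopper-Pearson) for counting error alone, because PCR copies without molecular identifiers cannot be counted as separate molecules.

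The sequences that carried the CAT reads are shown 5′ to 3′ with the CCA end. Capitals mark the first base, the last base of the acceptor stem, the anticodon and the 3 bases on each side of the anticodon loop. The first pair below held most CAT reads of the 5 libraries, and the others are the leading A. thaliana sequences of each remaining type.
at_tR141_MetCAT: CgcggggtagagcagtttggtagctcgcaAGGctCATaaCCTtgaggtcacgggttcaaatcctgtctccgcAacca
Hvulgare_tR10: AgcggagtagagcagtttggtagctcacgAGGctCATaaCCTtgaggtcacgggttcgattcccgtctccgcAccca
at_tR135_MetCAT: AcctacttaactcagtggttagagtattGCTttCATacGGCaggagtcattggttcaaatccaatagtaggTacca
at_tR136_MetCAT: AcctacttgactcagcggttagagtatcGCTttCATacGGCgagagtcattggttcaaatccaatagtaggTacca
at_tR102_IleCAT: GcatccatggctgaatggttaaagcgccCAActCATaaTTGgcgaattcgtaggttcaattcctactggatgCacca
at_tR103_IleCAT: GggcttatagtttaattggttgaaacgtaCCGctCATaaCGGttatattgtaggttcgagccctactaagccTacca
at_tR138_MetCAT: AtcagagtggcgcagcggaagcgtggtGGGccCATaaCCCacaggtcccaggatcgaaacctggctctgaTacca
The first sequence was identical, without CCA, to the A. thaliana plastid initiator gene trnfM (ArthCt099, plastid genome 36704 to 36777, minus strand, RefSeq build TAIR10.1). The second, at 77 bases of the same length, was listed with the same letters in T. aestivum, H. vulgare, Z. mays and S. italica. The third matched the plastid elongator trnM (ArthCt104, plastid 52056 to 52128, plus strand). The fourth matched the mitochondrial elongator (DA397_mgt09, mitochondrial genome 102603 to 102675, plus strand) and its copy in the nuclear genome (AT2G07755, chromosome 2, 3328670 to 3328742, minus strand), so these places cannot be told apart by sequence. The fifth matched both plastid genes of the lysidine isoleucine tRNA (ArthCt113, 86312 to 86385, minus strand, and ArthCt111, 152264 to 152337, plus strand). The sixth matched its mitochondrial counterpart (DA397_mgt15, 250307 to 250380, plus strand). A longer nuclear copy (AT2G07794, chromosome 2, 3383397 to 3383477, minus strand) begins with the same letters, so these places cannot be told apart by sequence either. The seventh matched 6 nuclear initiator genes, among them AT1G69000 (chromosome 1, 25941164 to 25941235, plus strand).

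The YAMAT-seq reads of the family came almost wholly from the organelle-type initiator in the grasses, and for the most part in A. thaliana. In A. thaliana the plastid initiator held 3707 of 4311 CAT reads, or 86.0% (95% interval 84.9 to 87.0). In H. vulgare the leading sequence held 237527 of 237531 CAT reads, and in S. italica it held all 17418. It held 121658 of 121670 CAT reads in T. aestivum and 47898 of 47906 in Z. mays. These sequences ranked 4 among all sequences of the H. vulgare, T. aestivum and Z. mays libraries, 6 in S. italica and 30 in A. thaliana.

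As a share of the whole library, the leading sequence differed widely between species. It was 1.82% (1.81 to 1.83) in H. vulgare and 1.16% (1.15 to 1.16) in T. aestivum. It was 0.254% (0.250 to 0.258) in S. italica, 0.242% (0.239 to 0.244) in Z. mays and 0.0276% (0.0267 to 0.0285) in A. thaliana. The counting intervals of these 5 shares did not overlap. The share was 65.9-fold that of A. thaliana in H. vulgare, 41.9-fold in T. aestivum, 9.22-fold in S. italica and 8.76-fold in Z. mays. These were bulk seedlings with 1 library per species. Tissue make-up, the amount of the tRNA per cell, and ligation or reverse transcription bias between sequence forms cannot be told apart.

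The largest family of every YAMAT-seq library, the glycine tRNAs GlyGCC, stood at 95.1% in Z. mays, 89.5% in S. italica, 84.4% in T. aestivum, 76.1% in H. vulgare and 55.3% in A. thaliana, and its part in these differences was not tested. With its leading sequence left out of the total, the CAT share was 7.60% in H. vulgare, 7.41% in T. aestivum, 4.95% in Z. mays, 2.43% in S. italica and 0.0717% in A. thaliana. A. thaliana was lowest with either total. By this total Z. mays stood above S. italica, the reverse of their order with all reads. Among the families of a library, CAT ranked 4 of 39 in T. aestivum, 4 of 35 in H. vulgare, 4 of 26 in Z. mays, 5 of 35 in S. italica and 22 of 46 in A. thaliana.

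The A. thaliana and grass forms of the organelle-type initiator differed by 8 substitutions and no gap, with positions counted from 1 at the 5′ end of the listed sequence and the A. thaliana base given first. C1A and G6A lay in the acceptor stem, G27A just before the anticodon stem, A29G in that stem, A58G and A60T in the T loop, T64C in the T stem, and A74C was the discriminator base before CCA. The first pair was unmatched in both forms, as C against A in A. thaliana and as A against A in the grasses. G6A turned a G-T pair into an A-T pair, A29G turned an A-T pair into a G-T pair, and T64C turned a G-T pair into a G-C pair. None of the 8 fell in the anticodon loop, and both forms had AGG before the loop and CCT after it. The grass form stood 8 edits from the A. thaliana plastid initiator and 18 edits from the nearest mitochondrial initiator. No grass genome was used, so its compartment rests on this distance alone.

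The 3 G-C pairs beside the anticodon loop separated the nuclear initiators from every other CAT tRNA in the reference. GGG before and CCC after the loop was present in 10 of 10 nuclear initiator genes of A. thaliana and in 0 of the 19 other CAT genes that are not nuclear copies of organelle tRNAs, the plastid and mitochondrial initiators included. By this mark alone the initiator share of CAT reads was 0.510% (0.320 to 0.772) in A. thaliana, 0.0167% (0.00721 to 0.0329) in Z. mays, 0.00411% (0.00133 to 0.00959) in T. aestivum and 0.00168% (0.000459 to 0.00431) in H. vulgare, with none listed in S. italica. By the class of the nearest A. thaliana gene it was 86.5% in A. thaliana and 99.998% to 100% in the grasses, because the plastid type lacks the mark.

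**Figure D1:**
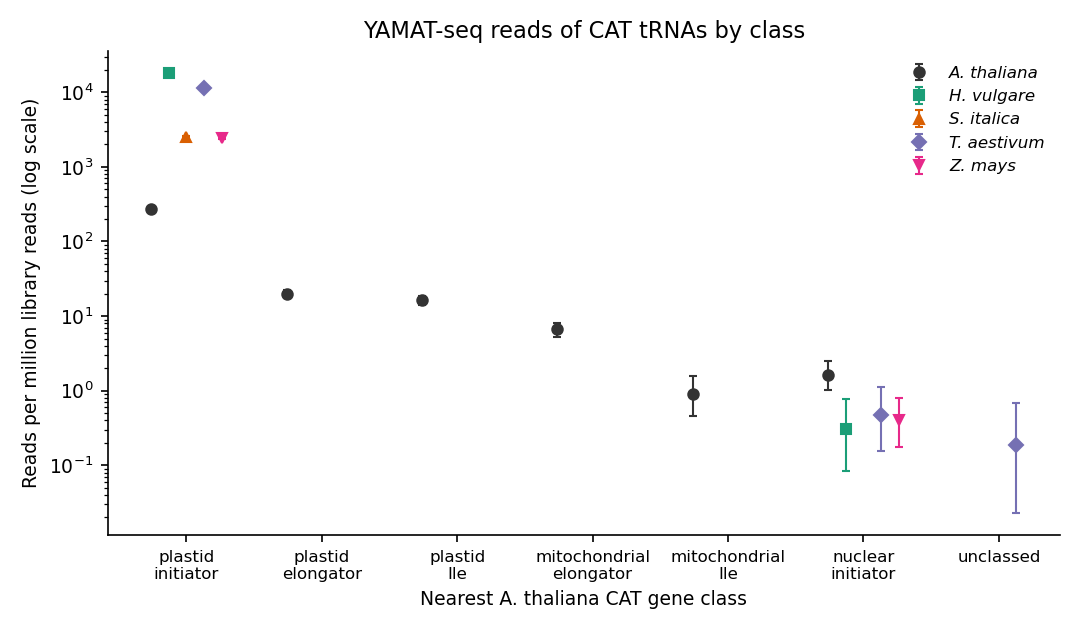
Reads scaled to a library of 1000000 (RPM, log axis) of CAT tRNAs in each YAMAT-seq library, by the class of the nearest A. thaliana CAT gene; points are single libraries and bars are 95% counting intervals, and a class with no listed reads has no point. The plastid initiator type spans 276 to 18188 RPM, while the nuclear initiator lies between 0.306 and 1.64.

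The nuclear initiator, which starts protein synthesis in the cytosol, was read 39 times in all among 428836 CAT reads of the 5 libraries. It was listed with 22 reads in A. thaliana, 8 in Z. mays, 5 in T. aestivum and 4 in H. vulgare, and was not listed in S. italica. As reads per 1000000 library reads (RPM) this was 1.64 (1.03 to 2.48) in A. thaliana, 0.475 (0.154 to 1.11) in T. aestivum, 0.403 (0.174 to 0.795) in Z. mays and 0.306 (0.0835 to 0.784) in H. vulgare. With all reads as the total, the A. thaliana interval lay above those of H. vulgare and Z. mays and overlapped that of T. aestivum, and the 3 grass intervals overlapped each other. With the leading GlyGCC sequence left out of the total, the order changed: RPM was 8.26 (3.57 to 16.3) in Z. mays, 3.66 (2.29 to 5.54) in A. thaliana, 3.04 (0.988 to 7.10) in T. aestivum and 1.28 (0.349 to 3.28) in H. vulgare. On that total the A. thaliana interval overlapped all 3 grass intervals, and the Z. mays interval lay above that of H. vulgare. In A. thaliana the plastid initiator had 169 times the reads of the nuclear one.

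The 10 nuclear initiator entries held 8 distinct sequences. The form of at_tR138_MetCAT, encoded by 6 of the 10 A. thaliana genes, was also listed in H. vulgare and T. aestivum with 2 reads each. Whether reads this few came from the grass itself was not tested. The other A. thaliana forms were each encoded by 1 gene, AT3G55795 with 8 reads and AT5G41675 with 4, against 10 reads for the form with 6 genes. As RPM these were 0.744 (0.357 to 1.37), 0.595 (0.257 to 1.17) and 0.298 (0.0811 to 0.762) for the forms with 10, 8 and 4 reads, and the intervals overlapped. The sequence shared by AT1G42120 and AT3G55735 was not listed. 3 grass forms follow, each the leading or joint leading nuclear type of its library, to be read against at_tR138_MetCAT above.
Hvulgare_tR238: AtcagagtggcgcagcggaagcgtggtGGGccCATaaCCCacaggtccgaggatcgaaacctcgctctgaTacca
Taestivum_tR327: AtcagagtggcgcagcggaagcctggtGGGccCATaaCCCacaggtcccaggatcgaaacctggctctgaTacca
Zmays_tR96: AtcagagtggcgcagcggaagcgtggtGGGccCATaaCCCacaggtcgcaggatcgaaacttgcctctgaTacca
Against at_tR138_MetCAT, the H. vulgare form carried C49G and G63C, the T. aestivum form G23C, and the Z. mays form C48G, C61T and G64C. The AT5G41675 form carried T2G and A70C. The 2 further Z. mays entries had 2 reads each. All 10 entries had the closed A-T first pair and the loop CCCATAA, and none of their differences touched the anticodon loop or the 3 bases beside it. With 2 to 10 reads each, these counts cannot rank the forms within a library.

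The nuclear elongator was not listed in any of the 5 libraries. In the RefSeq annotation of TAIR10.1 it has 11 genes, all of them annotated with 2 exons, against 10 genes for the nuclear initiator. Its sequence with the exons joined as annotated, and CCA added, is shown for comparison with the mature forms above.
AT1G04720: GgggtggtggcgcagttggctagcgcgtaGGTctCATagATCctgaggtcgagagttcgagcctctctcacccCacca
This gene lies on chromosome 1 at 1324923 to 1325007, plus strand. The listed sequence nearest to any nuclear elongator gene, whatever its anticodon, stood 27 edits away in H. vulgare, 24 in Z. mays, 23 in T. aestivum and 21 in A. thaliana and S. italica. No source used here says whether the authors' reference tRNAs held the spliced elongator. The lack of an entry need not mean a lack of the tRNA.

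Elongators and isoleucine tRNAs of the organelles were listed in A. thaliana alone. The plastid elongator held 263 reads, or 6.10% of the CAT reads (5.40 to 6.86), and its mitochondrial counterpart, which differs from it by A9G, T16C, T28C, A42G and G43A, held 89, or 2.06% (1.66 to 2.53). The plastid initiator thus had 14.1 times the reads of the plastid elongator. The plastid isoleucine tRNA held 218 reads, or 5.06% (4.42 to 5.75), and the mitochondrial one 12, or 0.278% (0.144 to 0.486). The plastid form exceeded the mitochondrial form 2.96-fold for the elongator and 18.2-fold for isoleucine. Reads of the nuclear copies, if any, are counted with the mitochondrial forms. No sequence nearest to the A. thaliana mitochondrial initiator was listed, and the closest entry of every library stood 18 edits from it.

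The organelle elongator and isoleucine CAT tRNAs had no near match in the grasses. The closest sequence of any anticodon stood 18 edits from the plastid elongator in each of the 4 grasses and 23 to 27 edits from the plastid isoleucine tRNA. It stood 17 edits from the mitochondrial elongator and 27 from the mitochondrial isoleucine tRNA, again in each grass, against 0 for all of these in A. thaliana. For these too, the content of the authors' reference is unknown here.

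Apart from the initiators, T. aestivum had 1 more CAT entry, with 2 reads, that belonged to no CAT class.
Taestivum_tR93: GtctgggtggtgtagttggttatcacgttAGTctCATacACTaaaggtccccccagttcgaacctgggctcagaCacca
It stood 28 edits from the nearest CAT gene but 8 edits from a valine tRNA gene of A. thaliana. T. aestivum also listed the exact A. thaliana plastid initiator, with 5 reads. The leading T. aestivum form, with 121658 reads, differs from it by 8 substitutions. Whether the 5 reads came from T. aestivum itself was not tested.

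In tRNA-seq the family was 12.5% of the tRNA abundance in T. aestivum, 7.71% in A. thaliana and 6.52% in H. vulgare. It was 3.29% in Z. mays, 1.96% in S. italica, 0.976% in G. max and 0.938% in S. bicolor. The highest value was thus 13.4 times the lowest, and both belonged to grasses. MetCAT ranked 2 in T. aestivum behind GluCTC at 14.1%, 4 in A. thaliana behind GluTTC at 8.64%, 5 in Z. mays and 6 in H. vulgare, but 11 in S. italica, 17 in G. max and 19 in S. bicolor. Against the median family of the same library it was 31.8-fold in T. aestivum and 2.06-fold in S. bicolor, with the other 5 species between 4.88-fold and 16.9-fold. Neighbours such as H. vulgare and A. thaliana cannot be ordered beyond an error, because no error is known for these values.

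**Figure D2:**
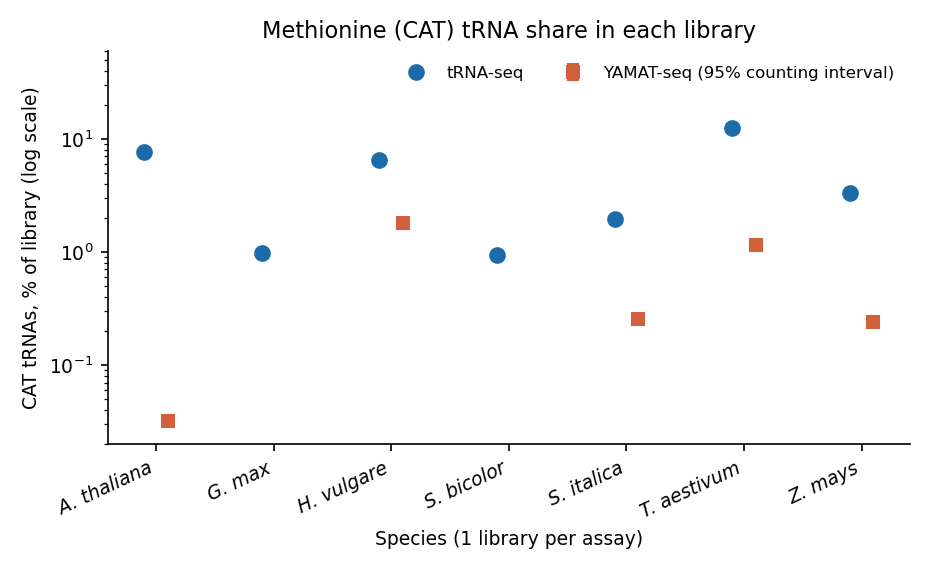
CAT tRNAs as a percent of each library (log axis) in tRNA-seq (circles, 7 species) and YAMAT-seq (squares with 95% counting intervals, 5 species), 1 library each. The tRNA-seq point lies above the YAMAT-seq point in all 5 species with both assays, from 7.71% against 0.0321% in A. thaliana to 6.52% against 1.82% in H. vulgare. A. thaliana is labelled seedling leaf and root in tRNA-seq and seedling in YAMAT-seq.

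No difference in the MetCAT share of tRNA-seq between grasses and eudicots passed the test. Grasses had 5.05% ± 4.68 (SD, n = 5 species), and A. thaliana and G. max a mean of 4.34%. The 2 groups overlapped, as they did for all but 8 of 52 families (15.4% did not overlap). The difference of mean log2(percent + 0.01) was 0.33, with an SD of 1.45 over the 5 grasses, and the two-sided exact permutation test gave p = 0.857, adjusted 1 over 52 families. Without G. max the difference was -1.15 and without T. aestivum -0.13, so its direction rested on single species. No family passed after adjustment (0.0% of 52), where 6 had an unadjusted p below 0.05, and the smallest p this test allows is 0.0476.

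MetCAT was lower in YAMAT-seq than in tRNA-seq in 5 of 5 species, as were 59.6% of the 52 families. tRNA-seq exceeded YAMAT-seq 240-fold in A. thaliana, where the shares were 7.71% and 0.0321%. The former is labelled seedling leaf and root, with identical values, and the latter seedling. Tissue and assay therefore cannot be told apart in A. thaliana. Its YAMAT-seq share counts isoleucine CAT reads and was 0.0304% without them. The excess of tRNA-seq over YAMAT-seq was 13.6-fold in Z. mays, 10.8-fold in T. aestivum, 7.73-fold in S. italica and 3.59-fold in H. vulgare. The mean log2 ratio of percent + 0.01 was -3.88 ± 2.16 (SD, n = 5 species). An exact two-sided permutation test by sign flips gave p = 0.062, the smallest that 5 species allow, and an adjusted p of 0.102, and 0 of 52 families (0.0%) passed. No family can have an unadjusted p under 0.05 in this test, and 32 reached the smallest p.

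The direction depended on the scale. With GlyGCC removed from both assays, MetCAT was 7.60% of YAMAT-seq against 6.92% of tRNA-seq in H. vulgare, 2.43% against 2.03% in S. italica and 4.96% against 3.39% in Z. mays. It remained lower in T. aestivum, at 7.41% against 13.8%, and in A. thaliana, at 0.0718% against 8.09%. The mean log2 ratio on this scale was -1.32 ± 3.02 (SD, n = 5), lower in 2 of 5 species, with p = 0.562 by the exact test. The 4 grasses alone had a mean of 0.011 ± 0.63 (SD, n = 4 species), so the negative mean rested on A. thaliana. In that species the sample labels of the assays also differ, seedling leaf and root against seedling. On this scale 54.9% of 51 families were lower in 5 of 5 species. Relative to the median log2 ratio of each species, over families with a mean of at least 0.1%, MetCAT was higher in all 4 grasses, with log2 ratios of 1.17 to 3.46, and lower in A. thaliana, with -4.46. Pseudocounts other than 0.01 were not tried on this scale, so how far these sizes depend on it is unknown. The share of families higher in all 4 grasses is not given for this scale, so MetCAT is not shown to stand out. The mean was 0.86 ± 3.09 (SD, n = 5), with p = 0.562 by the exact test.

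**Figure D3:**
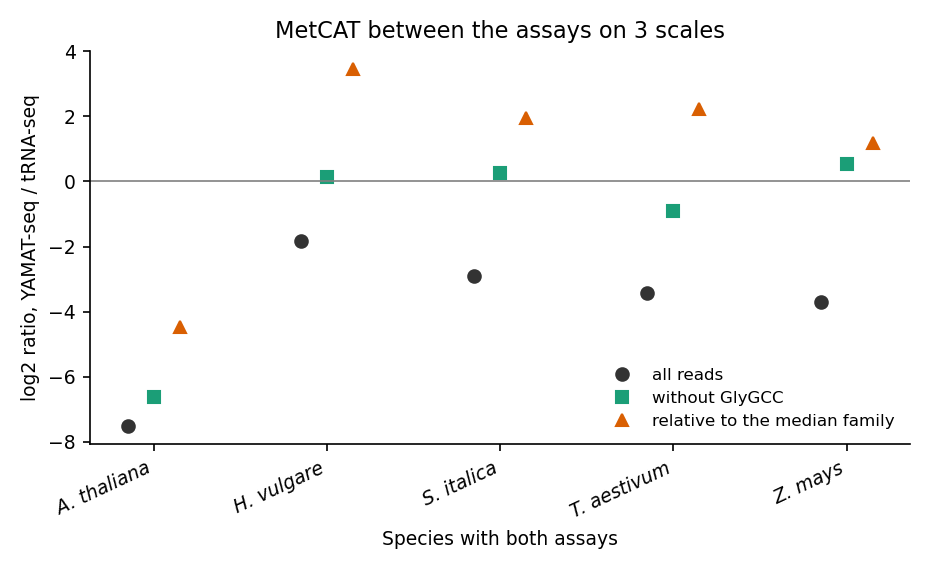
log2 ratio of the MetCAT share in YAMAT-seq to that in tRNA-seq for each of the 5 species with both assays, with all reads (circles), without GlyGCC (squares) and relative to the median family (triangles); each point is 1 pair of libraries. A. thaliana lies below 0 on every scale, at -7.52, -6.63 and -4.46, while the grasses move from -1.84 to -3.71 with all reads to 1.17 to 3.46 relative to the median family. A. thaliana is labelled seedling leaf and root in tRNA-seq and seedling in YAMAT-seq.

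The species order of MetCAT differed between the assays. A. thaliana was second of the 5 in tRNA-seq and last in YAMAT-seq. T. aestivum stood above H. vulgare, and Z. mays above S. italica, in tRNA-seq, and both orders were the other way round in YAMAT-seq with all reads. H. vulgare and T. aestivum exceeded S. italica and Z. mays in both assays.

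The tRNA-seq profile over the 7 species that was most like that of MetCAT was that of GlyGCC. Likeness was measured as the root mean square difference of log2(percent + 0.01) after each family was centred on its own mean, over 36 families with a mean of at least 0.1%. It was 0.41 for GlyGCC, 1.03 for GlyTCC and 1.23 for SerTGA, against a median of 1.91. GlyGCC was 9.25% in T. aestivum, 5.80% in H. vulgare, 5.21% in A. thaliana, 2.95% in S. italica, 2.82% in Z. mays, 0.644% in G. max and 0.558% in S. bicolor. MetCAT over GlyGCC lay between 0.667 in S. italica and 1.68 in S. bicolor, while each of the 2 families spanned more than 10-fold. MetCAT over GlyTCC ranged from 0.661 to 6.14 and MetCAT over SerTGA from 0.712 to 13.3. These ratios use the same values by which the families were chosen, so they restate the likeness and add no support to it. The points share library and total, and shares within a library are not independent.

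**Figure D4:**
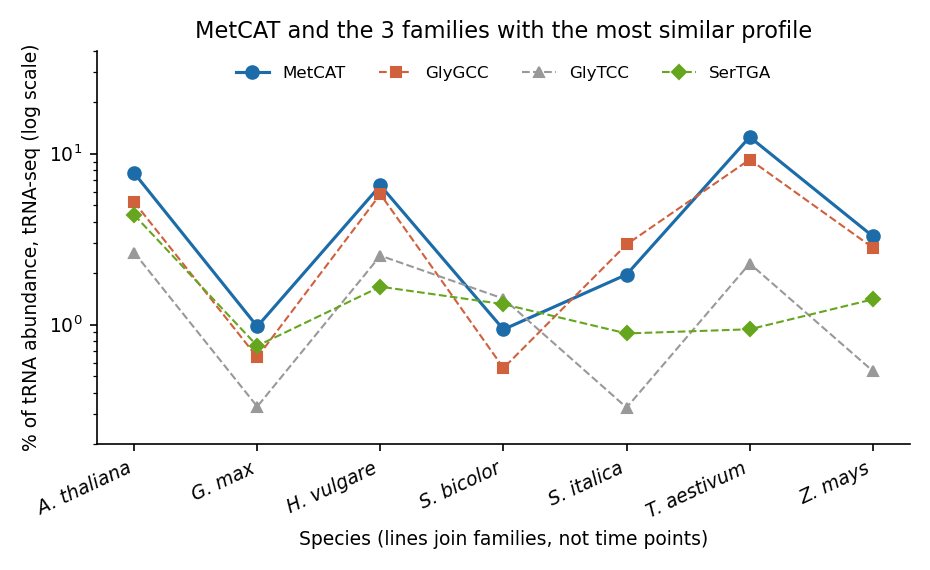
Percent of tRNA abundance in tRNA-seq (log axis) of MetCAT and of the 3 families with the most similar profile over 7 species, 1 library per species; lines join the values of a family. MetCAT and GlyGCC are both lowest in S. bicolor and highest in T. aestivum, from 0.938% and 0.558% in S. bicolor to 12.5% and 9.25% in T. aestivum.

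In the A. thaliana plastid genome the tRNA gene nearest to trnfM is that of GlyGCC (ArthCt116, 36490 to 36560, plus strand), which lies 143 bases away on the other strand and is identical to the leading YAMAT-seq sequence of A. thaliana with 7431104 reads. The next is trnS with anticodon TGA (ArthCt117, 35312 to 35403, minus strand), 1300 bases away. After it comes trnT with anticodon GGT (ArthCt098, 31369 to 31440, plus strand), 5263 bases away. ThrGGT was not among the 3 families most like MetCAT, and GlyTCC, which was, is not among these neighbours. Whether gene position bears on the likeness of profiles was not tested. The tRNA-seq values do not separate these plastid genes from nuclear genes with the same anticodons.

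CAT reads were more concentrated on their leading sequence than those of most families in the grasses and less so in A. thaliana. Among families with at least 10 reads, the leading sequence held a lower share than in CAT in 20 of 24 other families in T. aestivum, 18 of 21 in H. vulgare, 12 of 18 in Z. mays, 25 of 31 in S. italica and 13 of 37 in A. thaliana. In S. italica CAT had a single listed sequence, so its share was 100% by construction, and the remaining 6 families tied with it. The median share of the leading sequence over all families with at least 10 reads, CAT included, was 96.4% in A. thaliana, and in the grasses it ran from 86.1% (S. italica) to 98.1% (H. vulgare).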

How the data were processed

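In tRNA-seq the authors deposited a percent of total tRNA abundance per anticodon, per the file headers. In YAMAT-seq the authors deposited raw counts, 1 value per listed tRNA sequence and no listed value of 0, per the file headers. Adapters were trimmed with cutadapt and the build TAIR10 is named, per the submitters' processing notes. The aligner, reference tRNAs and treatment of reads matching several tRNAs were not given in the sources used here. Shares count sequenced cDNA and carry any bias of ligation, of reverse transcription at modified bases and of the 12 PCR cycles in the labels' protocols.

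The 7-base loop was found as the stretch closed by the best stem of 5 pairs, with T as its second base and a purine as its sixth scored too. The rule gave the named anticodon in 143 of 143 A. thaliana entries. The 32 CAT genes among 684 tRNA genes of TAIR10.1 were classed by annotation, and 3 nuclear genes that hold an organelle tRNA with at most 1 edit were set aside as copies. An entry, without the 3 bases CCA, took the class of the nearest gene by edit distance, computed with edlib 1.3.9.post1, if it lay within 16 edits and the next class was 3 or more edits farther. Assays and species groups were compared on log2(percent + 0.01) in all 52 families with exact permutation tests and Benjamini-Hochberg adjustment, and a pass was an adjusted p under 0.05. Exact tests were tried on simulated data. The loop and class rules were tried on A. thaliana CAT genes with random changes outside the anticodon stem and loop, so changes there were not tried. Each gene had fewer changes than the 8 edits of the leading grass form. Species stand in for replicates in these tests, so their p-values take species as units and hold no replicate error within a species. Named were the leading sequence of each class and species, sequences with at least 1% of the CAT reads, the 3 families most like MetCAT and its neighbours in rank. The remaining members are given by counts. GlyGCC was named as the largest YAMAT-seq family. Members, lists and tests were chosen with earlier results of these data known.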

Additional observations from a re-analysis of the deposited data

How the results depend on the processing

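The assays were paired by species, and no finer pairing was possible because the labels give no replicate numbers. The mean log2 ratio between assays stayed negative with pseudocounts of 0.001, 0.1 and 1 and without each species in turn (-4.39 to -2.97). Keeping only families averaging 0.1% or more cannot change this mean and alters the adjustment of p alone. Without GlyGCC the mean log2 ratio was -1.32, with 3 of 5 species turned, and 0.011 without A. thaliana as well. Relative to the median family it was 0.86. The difference between grasses and eudicots turned to -1.15 without G. max and -0.13 without T. aestivum, in a range of -1.15 to 1.82 over single species left out. Without the leading GlyGCC sequence the CAT share moved to 7.60% in H. vulgare, 7.41% in T. aestivum, 4.95% in Z. mays, 2.43% in S. italica and 0.0717% in A. thaliana, and without isoleucine CAT reads to 0.0304% in A. thaliana. The initiator share of CAT reads by nearest gene was 86.5% in A. thaliana, 99.998% in T. aestivum and 100% in the other 3 species, against at most 0.510% by GGG and CCC. With sequences of at least 10 reads alone, the share by GGG and CCC was 0.233% in A. thaliana. It was 0% in H. vulgare, T. aestivum and Z. mays, because 11 of 21 entries had fewer reads. Nuclear initiator RPM without the leading GlyGCC sequence was 8.26 in Z. mays, 3.66 in A. thaliana, 3.04 in T. aestivum and 1.28 in H. vulgare. These and the mean without both GlyGCC and A. thaliana were chosen after seeing the data. The nuclear share of CAT reads was the same with at most 12 edits and with a gap of 5. Neither setting could change it, because the nuclear initiator entries lay at most 4 edits from their class and at least 26 from the next. Depth limits the nuclear forms, each read at most 10 times, and is unknown for tRNA-seq.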
